A study of Mus musculus with 8 samples.

Results

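The 10 genes described here make or handle oxidised fatty acids and the ceramides of the skin barrier. They were Alox12, Alox12b, Alox12e, Aloxe3 and Alox15, which encode lipoxygenases, Alox5 and Alox5ap, which serve leukotriene synthesis in leukocytes, and Cers3, Abca12 and Elovl4, which serve barrier lipid synthesis. They were chosen by name, and the Ensembl identifier of each was matched to its mouse symbol, which found 10 of 10 among the 52325 genes of the count table. Endometrium was cut out by laser from frozen uterine sections of 4 WT and 4 Thra1PV/+ female mice, all brought to metestrus, and its mRNA was sequenced in 8 libraries. The Thra1PV/+ mice carry in 1 allele of Thra the PV mutation, which gives a dominant negative thyroid hormone receptor α1 in every tissue that uses the gene. The other allele is WT, no drug or hormone treatment is stated for these mice, and their age is not given in the sources used here. The study asked how the mutation alters gene expression across the endometrium.

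Lipoxygenases add oxygen to polyunsaturated fatty acids. In stratified epithelia such as the epidermis, Cers3 makes ceramides with ultra-long acyl chains that Elovl4 has extended, a hydroxylase and a transacylase link them to linoleate, Abca12 loads them into lamellar granules, and the enzymes encoded by Alox12b and Aloxe3 oxidise that linoleate so that the ceramide can be fixed to the cornified envelope. Alox12, Alox12e and Alox15 oxidise arachidonate and related fatty acids in platelets, epithelia and leukocytes, while Alox5, with its membrane partner Alox5ap, starts leukotriene synthesis in neutrophils, mast cells and macrophages.

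The libraries held 48791602 to 59818887 estimated counts. Of all genes, 18174 passed a filter on low counts and were tested with edgeR's quasi-likelihood test, with calls made from a 2-fold change and an adjusted p-value of at most 0.1. Levels are CPM, counts scaled to the size of each library after TMM normalization, which sets 3 counts, taken as the floor of detection, at 0.0525 to 0.0628 CPM. Thra, which both genotypes express, ranged from 45.8 to 127 CPM with a log2 fold change of 0.04 (standard error, SE, 0.39, edgeR adjusted p = 0.987), and its counts hold both alleles together. The 20 squamous epithelium markers summed to 3325 to 5412 CPM in Thra1PV/+ libraries and to 80.4 to 346 CPM in WT libraries, and the 9 simple epithelium and gland markers to 2228 to 5327 and 2148 to 6129 CPM. WT library 1 stood apart with 9424 CPM of 5 smooth muscle markers, where the other WT libraries held 336 to 779 CPM and the Thra1PV/+ libraries 101 to 395 CPM. By the study's description the libraries of a genotype came from separate mice, and p-values here measure the spread between them.

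None of the 10 members was called. Of the 10, 8 passed the filter and 2, Alox12b and Abca12, had too few counts. Over all tested genes, 0.99% were called, 0.924% as higher and 0.066% as lower in Thra1PV/+ endometrium, shares at which 8 genes would hold less than 1 call. At an unadjusted p under 0.05 there were 3 of the 8, Cers3, Alox12 and Alox15, where 9.77% of all tested genes passed, and DESeq2, run as an alternative, called 1 of the 8, Cers3. The 4 Thra1PV/+ and 4 WT libraries overlapped for each of the 8, while they did not overlap for 6.04% of all tested genes, 3.55% with Thra1PV/+ above WT and 2.49% with Thra1PV/+ below WT. These are bulk samples, in which fewer cells of a type and less RNA per cell cannot be told apart.

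**Figure D1:**
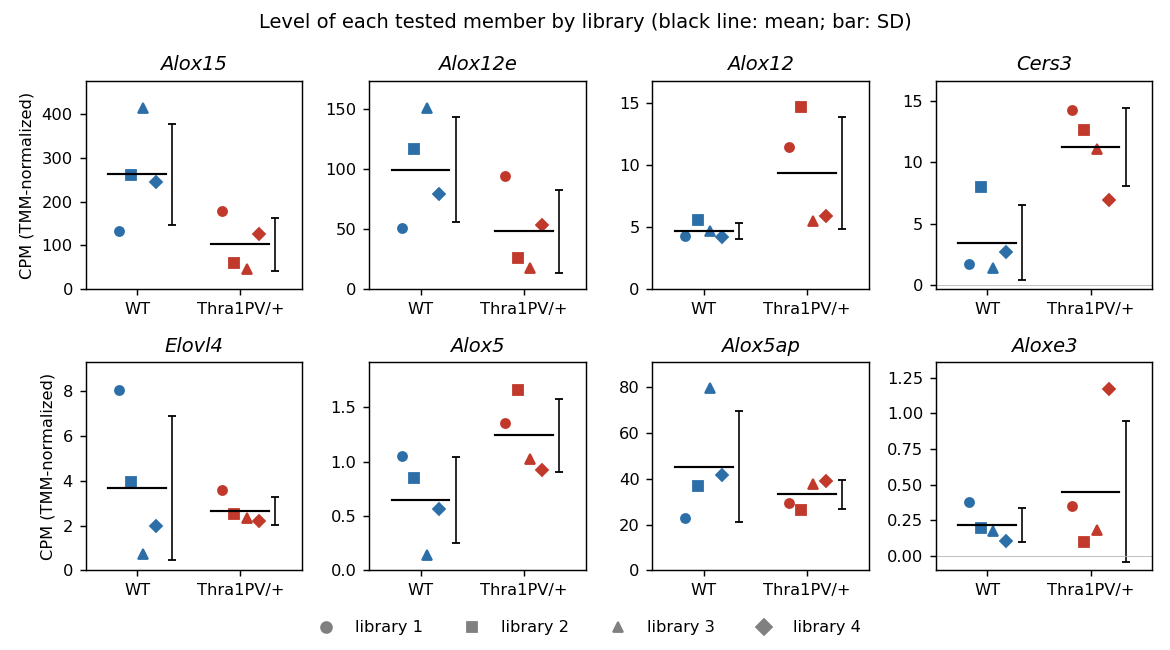
Level of each of the 8 tested members (CPM, linear axes, a scale of its own in each panel) in the 4 WT (blue) and 4 Thra1PV/+ (red) libraries, with the marker shape giving the library number, the black line the mean and the bar the SD. Cers3 and Alox12 have 3 of 4 Thra1PV/+ libraries above the highest WT library, Alox15 has 3 below the lowest WT library, and the genotypes overlap in every panel.

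Cers3 (ENSMUSG00000030510.11, chromosome 7 of GRCm38, 66743504 to 66823691, plus strand), the ceramide synthase of ultra-long acyl chains, had the largest difference among the tested members. Its level was 14.3, 12.6, 11.1 and 6.92 CPM in Thra1PV/+ libraries 1 to 4 and 1.72, 7.98, 1.41 and 2.74 CPM in WT libraries 1 to 4. All but Thra1PV/+ library 4 lay above the highest WT library, which was WT library 2, and the other 3 WT libraries lay below every Thra1PV/+ library. The means were 11.2 ± 3.16 CPM (SD, n = 4) and 3.46 ± 3.07 CPM (SD, n = 4), a difference of means that edgeR fitted as a log2 fold change of 1.70 (SE 0.57, edgeR adjusted p = 0.367). Permuting the genotypes over all 70 arrangements of the 8 libraries, an exact two-sided permutation test, gave p = 0.0571, where the smallest possible p is 0.0286. The call turned on 1 library and on the tool. Without WT library 2 the log2 fold change was 2.55 and Cers3 was called (edgeR adjusted p = 0.0523), and on all 8 libraries DESeq2 called it too (log2 fold change 1.73, adjusted p = 0.0567). It was called in no other of the 19 alternatives, and its fold change was positive in all 19. The summed squamous markers did not rank the libraries as Cers3 did. WT library 2 held 119 CPM of these markers against 346 CPM in WT library 3, which had the lowest Cers3. Thra1PV/+ library 1, with the highest Cers3, had the lowest marker sum of its genotype at 3325 CPM. Perp alone held 66.6 CPM of the sum in WT library 2 and 216 CPM in WT library 3. Single markers differed in rank. Among WT libraries, Krt15 (10.7 CPM), Trp63 (2.04 CPM) and Fat2 (0.957 CPM) were highest in WT library 2. Krt5 (18.1 CPM), Krt14 (10.8 CPM) and Krt13 (22.1 CPM) were highest in WT library 3. The part of squamous cells in the Cers3 values was not tested.

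Elovl4 (ENSMUSG00000032262.13, chromosome 9, 83778692 to 83806277, minus strand), the elongase that supplies Cers3 with ultra-long fatty acids, had 3.58, 2.52, 2.33 and 2.22 CPM in Thra1PV/+ libraries 1 to 4 and 8.05, 3.94, 0.716 and 1.99 CPM in WT libraries 1 to 4. The WT libraries spanned the whole range of the mutant libraries, with 2 above all of them and 2 below all of them. The fitted log2 fold change came to -0.46 (SE 0.64, edgeR adjusted p = 0.874), and the exact permutation test gave p = 1.0. WT library 1, the one with 9424 CPM of smooth muscle markers, held the highest Elovl4 level, and leaving it out turned the log2 fold change to 0.31. The 10 endometrial stroma markers summed to 5739, 5094 and 5604 CPM in Thra1PV/+ library 1, WT library 1 and WT library 2, the 3 libraries with the highest Elovl4, and to 665 to 2040 CPM in the other 5. The part of muscle and stroma in these values was not tested.

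Abca12 (ENSMUSG00000050296.14, chromosome 1, 71242276 to 71414910, minus strand), the lipid transporter of lamellar granules, was at or under the floor in every library. It had 0, 1, 2 and 0 counts in Thra1PV/+ libraries 1 to 4 and 0, 0, 2 and 1 counts in WT libraries 1 to 4. Differences under 0.0628 CPM, the highest floor among the 8 libraries, were not detectable at this depth, and no fold change is given.

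The pair of lipoxygenases that act on acylceramide in the epidermis was scarce in both genotypes. Alox12b (ENSMUSG00000032807.5, chromosome 11, 69156989 to 69169792, plus strand), which oxygenates the linoleate, had 0, 25, 20 and 5 counts in Thra1PV/+ libraries 1 to 4 and 9, 8, 2 and 9 counts in WT libraries 1 to 4. Thra1PV/+ libraries 2 and 3 were the highest of the 8, and Thra1PV/+ library 1, with no count, was the lowest. Tested only with the looser filter of at least 1 count in any library, Alox12b had a log2 fold change of 0.89 (edgeR adjusted p = 0.797). Aloxe3 (ENSMUSG00000020892.10, chromosome 11, 69125896 to 69149115, plus strand), which isomerises the product of Alox12b, had 19, 5, 9 and 67 counts in Thra1PV/+ libraries and 20, 11, 9 and 5 counts in WT libraries. A single library, Thra1PV/+ library 4, stood above the other 7, which shared the range of 5 to 20 counts. The log2 fold change of 1.06 (SE 0.78, edgeR adjusted p = 0.728) became -0.03 without that library, and the exact permutation test gave p = 0.629. The high Aloxe3 and high Alox12b values fell in different libraries, although the genes lie 7873 bases apart.

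Alox12 (ENSMUSG00000000320.10, chromosome 11, 70241457 to 70255353, minus strand), the platelet-type 12-lipoxygenase that basal keratinocytes also make, had 11.5, 14.8, 5.46 and 5.87 CPM in Thra1PV/+ libraries 1 to 4. The WT libraries lay close together at 4.27, 5.54, 4.72 and 4.21 CPM. Thra1PV/+ libraries 1 and 2 stood well above this narrow range, library 4 just above it and library 3 within it. The means were 9.40 ± 4.52 CPM (SD, n = 4) and 4.69 ± 0.615 CPM (SD, n = 4), with a log2 fold change of 1.004 (SE 0.36, edgeR adjusted p = 0.396). The exact permutation test gave p = 0.0571, and with each library left out in turn the fold change ran from 0.70 to 1.19. The platelet markers, 13 genes with Tubb1 at 0 in every library, summed to 108, 190, 64.6 and 27.8 CPM in Thra1PV/+ libraries 1 to 4 and to 34.3 to 64.01 CPM in WT libraries. Ppbp carried the high sums, with 52.3, 170.1, 36.2 and 0.683 CPM in Thra1PV/+ libraries 1 to 4. The other 12 platelet markers summed to 55.3, 19.5, 28.4 and 27.1 CPM in these libraries and to 31.1 to 63.4 CPM in WT libraries. The lowest sum was in Thra1PV/+ library 2, where Alox12 was highest. Itgb3 carried much of this remainder, with 46.3, 9.29, 17.7 and 16.4 CPM in Thra1PV/+ libraries 1 to 4. In WT libraries Itgb3 had 22.1 to 52.0 CPM. The part of platelets in the Alox12 values was not tested.

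Cers3 and Alox12 were the tested members with positive fold changes at a level above the scarce Aloxe3 and Alox5, and to show what lies before their starts the 250 bases upstream of each are printed from RefSeq promoters on GRCm38.p6, 5′ to 3′ on the strand of its gene. The promoter table held 7 of the 10 members, without Alox15, Aloxe3 and Alox5ap. Both strands were searched for AGGTCA, the half-site of nuclear receptors such as the thyroid hormone receptors, CACCC, a motif of KLF factors, TGANTCA, the AP-1 motif, and GGGCGG, the GC box of Sp1. Capitals mark every match.
Cers3, chr7:66743254-66743503, plus strand: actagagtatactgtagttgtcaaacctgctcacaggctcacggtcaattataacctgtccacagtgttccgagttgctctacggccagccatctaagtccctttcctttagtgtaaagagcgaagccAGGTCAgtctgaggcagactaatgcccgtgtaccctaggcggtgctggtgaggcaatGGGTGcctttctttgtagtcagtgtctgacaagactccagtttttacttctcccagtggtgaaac
Alox12, chr11:70255371-70255620, minus strand: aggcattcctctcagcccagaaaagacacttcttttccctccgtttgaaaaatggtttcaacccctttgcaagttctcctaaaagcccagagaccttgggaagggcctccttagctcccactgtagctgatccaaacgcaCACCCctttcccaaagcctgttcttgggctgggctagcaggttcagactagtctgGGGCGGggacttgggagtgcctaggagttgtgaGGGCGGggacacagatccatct
Cers3 held 1 AGGTCA, 122 bases before its start, and 1 CACCC read on the opposite strand, and Alox12 held 1 CACCC and 2 GGGCGG, with none of these matches overlapping another. TGANTCA was found in neither window. Of 32851 promoter windows of the same length, 14% held AGGTCA, 52.0% CACCC, 6.75% TGANTCA and 32.7% GGGCGG, so that each motif found is a common one. A match describes the letters only, and no binding was measured here.

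Alox15 and Alox12e had the highest levels per transcript length (TPM) among the lipoxygenases, and both had lower means in Thra1PV/+ endometrium. Alox15 (ENSMUSG00000018924.6, chromosome 11, 70344152 to 70352031, minus strand), the mouse leukocyte-type 12/15-lipoxygenase, had 178, 60.1, 46.2 and 126 CPM in Thra1PV/+ libraries 1 to 4 and 132, 261, 415 and 244 CPM in WT libraries 1 to 4. Thra1PV/+ library 1 exceeded WT library 1, and those were the only libraries out of place, since the other 3 of each genotype were separated by the full gap from 126 to 244 CPM. The means were 102 ± 61.2 CPM (SD, n = 4) and 263 ± 116 CPM (SD, n = 4), with a log2 fold change of -1.36 (SE 0.49, edgeR adjusted p = 0.403). The exact permutation test gave p = 0.0571. The fold change was negative in all 19 alternatives, from -1.72 to -1.03 with single libraries left out, and passed the call in none.

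Alox12e (ENSMUSG00000018907.10, chromosome 11, 70315610 to 70322628, minus strand), the epidermal-type 12-lipoxygenase, had 94.2, 25.9, 17.9 and 53.7 CPM in Thra1PV/+ libraries 1 to 4. WT libraries 1 to 4 had 50.7, 117, 151 and 79.1 CPM. Thra1PV/+ libraries 2 and 3 lay below every WT library, library 1 lay above 2 of the WT libraries, and library 4 lay just above WT library 1. The fitted log2 fold change came to -1.05 (SE 0.55, edgeR adjusted p = 0.593), and the exact permutation test gave p = 0.143. As with Alox15, the sign held in all 19 alternatives with no call, and single libraries left out gave -1.56 to -0.76.

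**Figure D2:**
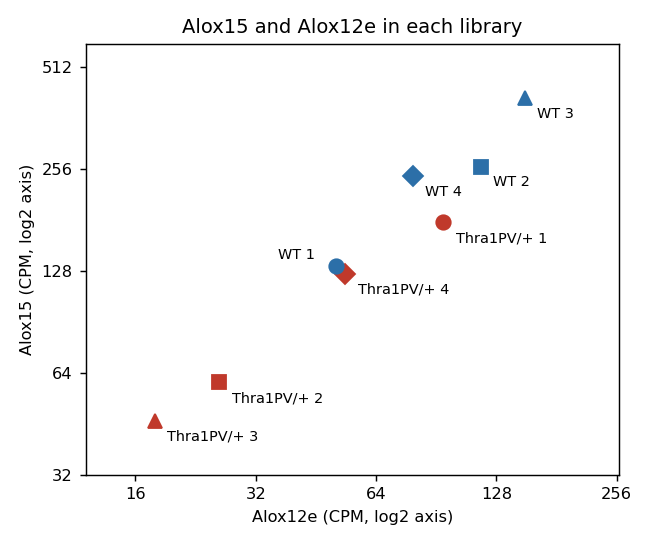
Alox15 level (vertical axis, CPM) against Alox12e level (horizontal axis, CPM), both on log2 axes, with 1 point for each of the 4 WT (blue) and 4 Thra1PV/+ (red) libraries. The points run along a single line from Thra1PV/+ library 3 (17.9 and 46.2 CPM) to WT library 3 (151 and 415 CPM), with WT library 1 beside Thra1PV/+ library 4.

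The levels of Alox15 and Alox12e moved together across libraries. The number of Alox15 counts per Alox12e count was 1.89, 2.32, 2.59 and 2.34 in Thra1PV/+ libraries 1 to 4 and 2.61, 2.23, 2.75 and 3.09 in WT libraries 1 to 4, while the level of Alox15 itself spanned 46.2 to 415 CPM. Likeness was measured as the root mean square difference between log2 CPM profiles, each centred on its own mean over the 8 libraries, among tested genes whose mean log2 CPM reached 1. On this measure each was the nearest gene to the other, with a difference of 0.201 log2 units beside spreads of 1.003 for Alox15 and 0.99 for Alox12e. The next nearest to Alox15 were Dio1 at 0.341, type 1 deiodinase, which makes T3 from T4, and Rdh16 at 0.362, a retinol dehydrogenase. For Alox12e they were Smim6 at 0.318 and Dio1 at 0.433. None of these genes was called, with log2 fold changes of -1.63 for Dio1 (adjusted p = 0.373), -1.39 for Rdh16 (adjusted p = 0.388) and -1.19 for Smim6 (adjusted p = 0.532, all from edgeR). All 8 libraries entered this measure, so it holds the genotype difference as well as the spread within each genotype.

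Sequence shared by the pair, through which reads could be assigned to either gene, was compared in 1 annotation. The release behind the counts is not stated and may differ. The part of shared reads in the levels of the pair was not tested. In GENCODE M21, no 31-base word of an Alox15 or Alox12e transcript occurs in any other gene, and their coding sequences matched at 69.3% of 1969 aligned bases, the highest identity among the lipoxygenase pairs compared. Alox12 matched Alox15 at 67.7% and Alox12e at 67.3%, and Alox12b matched Aloxe3 at 63.1%. The longest stretch common to the coding sequences of Alox15 and Alox12e was 16 bases, shown here in capitals with 20 bases on each side to let the differences around it be seen, from bases 663 to 718 and 660 to 715 of the respective coding sequences.
Alox15: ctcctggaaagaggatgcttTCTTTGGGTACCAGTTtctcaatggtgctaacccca
Alox12e: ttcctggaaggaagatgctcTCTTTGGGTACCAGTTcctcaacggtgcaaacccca
For the other members, the share of 31-base words found in another gene was 0 for Alox12b, Alox5, Alox5ap and Elovl4, 0.155% for Cers3, 0.835% for Aloxe3, 1.01% for Abca12 and 1.28% for Alox12.

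Alox12, Alox12e and Alox15 lie in 1 cluster on chromosome 11, all on the minus strand, with 60256 bases between Alox12 and Alox12e and 21523 bases between Alox12e and Alox15. Their log2 fold changes of 1.004, -1.05 and -1.36 had different signs within this stretch. The 9 other tested genes within 100000 bases of the cluster had log2 fold changes from -0.47 (Clec10a, a lectin of macrophages) to 0.89 (Slc16a11, a monocarboxylate transporter), with a median of 0.04, and none was called. Pelp1, the nearest tested gene beyond Alox15, had 34.1 CPM in both genotypes and a log2 fold change of -0.002. Around Aloxe3 and Alox12b, 8 other tested genes ran from -0.75 (Tmem107) to 1.54 (Aurkb, a mitotic kinase), with a median of 0.07 and no call.

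**Figure D3:**
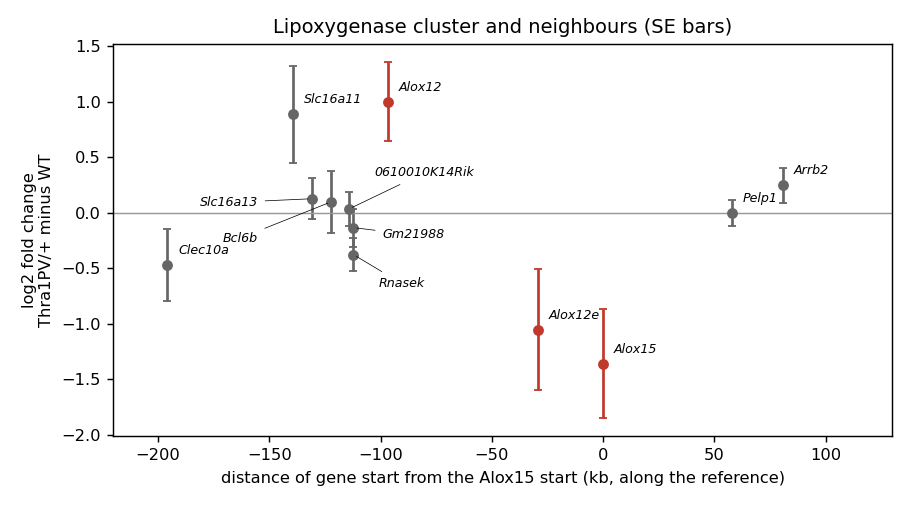
Log2 fold change (Thra1PV/+ minus WT, vertical axis) of Alox12, Alox12e and Alox15 (red) and of the 9 other tested genes within 100000 bases of them (grey), plotted at the distance of each gene's start from the Alox15 start (kb, horizontal axis), with standard error bars. Alox12 sits at 1.004, Alox12e at -1.05 and Alox15 at -1.36, and the neighbours lie between -0.47 and 0.89.

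The leukocyte genes gave no call either. Alox5 (ENSMUSG00000025701.12, chromosome 6, 116410077 to 116461178, minus strand), 5-lipoxygenase, was low, at 1.36, 1.66, 1.02 and 0.928 CPM in Thra1PV/+ libraries 1 to 4 and 1.05, 0.849, 0.139 and 0.565 CPM in WT libraries 1 to 4. Thra1PV/+ libraries 1 and 2 lay above all WT libraries, and WT library 3, with 7 counts, was the lowest. The fitted log2 fold change came to 0.93 (SE 0.56, edgeR adjusted p = 0.654), and the exact permutation test gave p = 0.0857.

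Alox5ap (ENSMUSG00000060063.9, chromosome 5, 149264767 to 149288153, plus strand), the protein that presents arachidonate to 5-lipoxygenase, had 29.5, 26.2, 37.6 and 39.2 CPM in Thra1PV/+ libraries 1 to 4 and 22.9, 36.9, 79.6 and 41.5 CPM in WT libraries 1 to 4. The mutant libraries lay within the WT range, of which WT library 3 was the top. The fitted log2 fold change came to -0.45 (SE 0.35, edgeR adjusted p = 0.747), the exact permutation test gave p = 0.543, and without WT library 3 the fold change was -0.01.

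WT library 3 thus had the lowest Alox5 and the highest Alox5ap of the 8 libraries. The 14 neutrophil markers, of which Elane was at 0, summed to 16040 CPM in that library, of which Ltf, a gene of epithelia as well as neutrophils, made up 16020 CPM, and to 1301 to 12380 CPM in the other WT and 4711 to 11590 CPM in the Thra1PV/+ libraries. The 13 markers without Ltf, a sum formed after the data were seen, gave the opposite picture, with 16.3 CPM in WT library 3, 66.3, 11.4 and 155 CPM in WT libraries 1, 2 and 4, and 177, 767, 327 and 87.4 CPM in Thra1PV/+ libraries 1 to 4. S100a8 and S100a9 carried much of this sum, with 188 and 412 CPM in Thra1PV/+ library 2. Of the 9 neutrophil markers tested, none was called and 5 had positive log2 fold changes at an unadjusted p under 0.05 by edgeR. Ly6g (-0.24) and Mmp9 (-0.36) had negative log2 fold changes. The median over the 9 was 1.96 beside -0.05 over all tested genes. Camp, Mmp8, Mpo and Ngp, not tested, had at most 16 counts in any library. The 10 macrophage markers summed to 504 to 1414 CPM in Thra1PV/+ and 552 to 849 CPM in WT libraries, and the 8 lymphocyte markers to 7.33 to 19.7 and 4.53 to 9.94 CPM. The 9 mast cell markers summed to 82.0 to 126 and 39.0 to 290 CPM, nearly all of it Hdc and Kit. Without that pair, the other 7, which include the mast cell proteases, summed to 10.2 CPM in WT library 1 and to at most 0.524 CPM in the other 7 libraries. The 8 eosinophil markers, with Epx and Ear6 at 0, summed to 2.17 to 4.72 CPM in Thra1PV/+ and 1.49 to 9.19 CPM in WT libraries, and without Il5ra, which held 8.39 CPM in WT library 3, to 1.58 to 4.50 and 0.796 to 2.75 CPM. The part of these cells in the 5-lipoxygenase and Alox15 values was not tested. The genes nearest to Alox5ap in profile were Glb1, a lysosomal galactosidase, at 0.102, Tmie at 0.111 and Gng12 at 0.130, and those nearest to Alox5 were 2310007B03Rik at 0.214, Cd44, a hyaluronan receptor, at 0.222 and Sord at 0.284.

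The other tested members lay at varied distances from their nearest profiles. Cers3, with a spread of 1.23, was nearest to Sh3rf2 at 0.297, Col7a1, the anchoring fibril collagen under stratified epithelia, at 0.321 and Gtse1 at 0.392, none of them called. Alox12 was nearest to Arhgef39 at 0.188, Il1rap at 0.336 and Fam131c at 0.341, beside a spread of 0.627. Elovl4 was nearest to Gpr27 at 0.220, Abcb9 at 0.236 and Tcp11l1 at 0.265. The nearest genes to Aloxe3, Sptbn4, Itgb7 and Tmem44, were at 0.548 to 0.565 beside a spread of 0.953.

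Set side by side per transcript length, in the deposited TPM values, the members fell into the same broad order in both genotypes. In WT endometrium Alox15 came first at 151 ± 55.4 TPM (SD, n = 4), followed by Alox5ap at 106 ± 54.4 TPM and Alox12e at 49.5 ± 20.9 TPM, with neighbours in this order overlapping between libraries. A gap followed, from 26.6 TPM in the lowest Alox12e library to 3.35 TPM in the highest Elovl4 library, the top value among the members that follow. Alox12 at 2.07 ± 0.283 TPM, Elovl4 at 1.67 ± 1.26 TPM and Cers3 at 1.46 ± 1.2 TPM overlapped. Alox5 at 0.433 ± 0.294 TPM and Aloxe3 at 0.0904 ± 0.0415 TPM came next, then Alox12b at 0.0725 ± 0.0355 TPM, each overlapping its neighbour, and Abca12 at 0.00639 ± 0.00740 TPM lay below every Alox12b library.

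In Thra1PV/+ endometrium Alox5ap came first at 73.0 ± 16.3 TPM (SD, n = 4), then Alox15 at 58.7 ± 39.0 TPM and Alox12e at 25.2 ± 18.9 TPM. Cers3, the sixth of the 10 in WT endometrium, was the fourth at 4.62 ± 1.27 TPM, beside Alox12 at 3.91 ± 2.01 TPM with overlapping libraries, and both lay above every Elovl4 library (1.28 ± 0.234 TPM). Alox5 had 0.775 ± 0.424 TPM, Aloxe3 0.179 ± 0.192 TPM, Alox12b 0.133 ± 0.133 TPM and Abca12 0.00695 ± 0.00828 TPM. Set beside the squamous markers on the same scale, Cers3 was near Dsg3 at 5.24 ± 2.71 TPM (SD, n = 4) in Thra1PV/+ endometrium. Ivl, an envelope precursor, had 6.28 ± 2.49 TPM, and Tgm1, the cross-linking enzyme of the cornified envelope, 8.71 ± 9.72 TPM (SD, n = 4). The Tgm1 mean was carried by Thra1PV/+ library 2, with 54.7 CPM beside 6.16 to 15.65 CPM in the other Thra1PV/+ libraries. All 10 members were below Krt5 at 760 TPM. Loricrin and filaggrin, the late products of a keratinised epidermis, had 1.77 TPM (Lor) and 0.149 TPM (Flg) in Thra1PV/+ libraries. In WT libraries Lor was higher, at 3.71 TPM (log2 fold change -0.73, edgeR adjusted p = 0.68), and Flg was at 0. Flg was found only in Thra1PV/+ libraries 2 and 3, at 0.710 and 0.695 CPM.

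**Figure D4:**
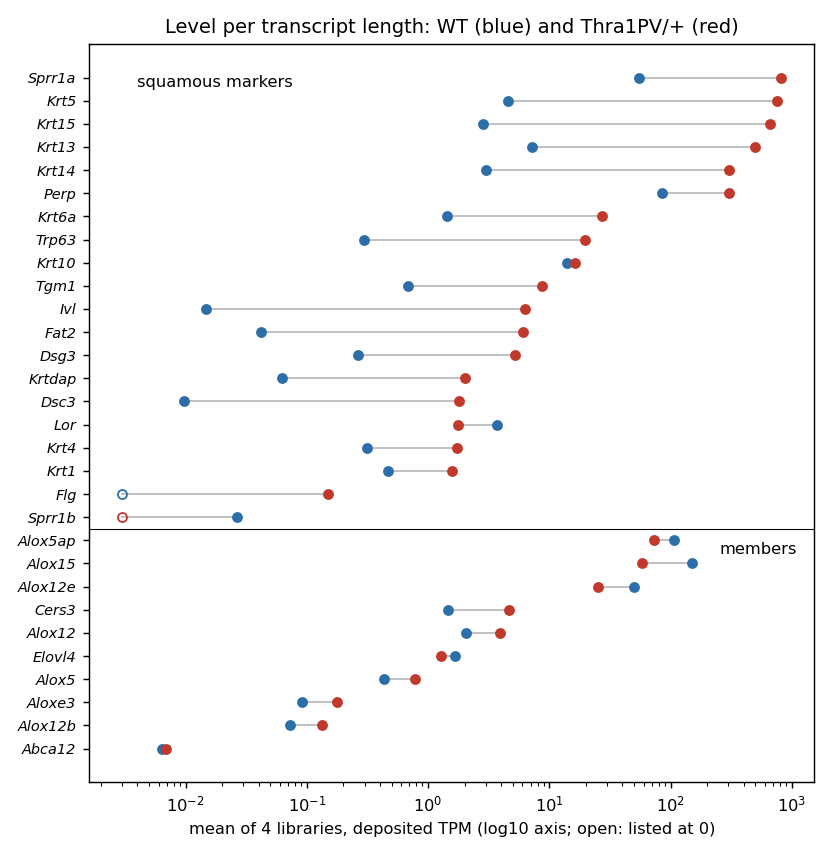
Mean deposited TPM of 4 libraries (horizontal log10 axis) in WT (blue) and Thra1PV/+ (red) endometrium for the 20 squamous epithelium markers (top) and the 10 members (bottom), with open points for genes listed at 0 in all libraries of a genotype. Most squamous markers have red points far to the right of blue, while the distance between genotypes is shorter for the members and runs to the left for Alox15, Alox12e, Alox5ap and Elovl4.

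The other genes of barrier lipid synthesis, a list of 33 that covers ceramide synthases, elongases, sphingolipid enzymes and acylceramide processing, had 32 tested genes, of which 2 were called higher and none lower, beside 0.924% and 0.066% of all tested genes. Their median log2 fold change was -0.11, where that of all tested genes was -0.05, and at an unadjusted p under 0.05 there were 5 with positive and 3 with negative fold changes by edgeR, beside 9.77% of all tested genes in either direction. Both called genes encode enzymes known from acylceramide processing. Ephx3 (ENSMUSG00000037577), the epoxide hydrolase that acts on the product of Aloxe3, rose from 0.281 ± 0.118 to 4.76 ± 2.28 CPM (SD, n = 4), with a log2 fold change of 4.07 (SE 0.50, edgeR adjusted p = 0.0134), with 140 to 388 counts in Thra1PV/+ and 9 to 22 counts in WT libraries. Cyp4f39 (ENSMUSG00000061126), the hydroxylase of ultra-long fatty acids, had 18 to 84 counts in Thra1PV/+ and 0 to 2 counts in WT libraries. It rose to 1.07 ± 0.569 CPM (SD, n = 4), at least 18.3-fold higher than the mean floor of 3 counts per WT library, and was called (edgeR adjusted p = 0.022). Each stayed called with any library left out, while the call of Cyp4f39 was lost in limma on log2(TPM + 1) of the deposited table (adjusted p = 0.12 from limma). The squamous markers summed to 3325 to 5412 CPM in Thra1PV/+ and 80.4 to 346 CPM in WT libraries. The part of squamous cells in the Ephx3 and Cyp4f39 values was not tested.

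After their values were seen, 4 more genes of this list are named because their genotypes did not overlap without a call. Sdr9c7, which oxidises acylceramide after Alox12b and Aloxe3, had 0.735 to 7.001 CPM in Thra1PV/+ and 0 to 0.239 CPM in WT libraries (log2 fold change 5.38, edgeR adjusted p = 0.168). Pnpla1, the transacylase that joins linoleate to the ceramide, had 0.496 to 3.06 CPM and 0.147 to 0.398 CPM (log2 fold change 2.16, adjusted p = 0.322). Slc27a4, a fatty acid transporter and acyl-CoA synthetase, had a log2 fold change of 0.44 (adjusted p = 0.42), and Smpd1, acid sphingomyelinase, one of -0.99 (adjusted p = 0.363). Counting the called pair, libraries did not overlap for 6 of the 32 genes, beside 6.04% of all tested genes. Cyp4f39 and Sdr9c7, with at most 2 and 12 counts in WT libraries, passed the filter through their Thra1PV/+ libraries. Their lack of overlap was thus in part set by the filter. The part of squamous cells in the Sdr9c7 and Pnpla1 values was not tested.

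The 3 genes of the list with the highest mean level were Sgms2, Asah1 and Cers2, and none was called. Sgms2, a sphingomyelin synthase, had 147 ± 28.4 CPM in Thra1PV/+ and 160 ± 94.1 CPM in WT libraries (SD, n = 4), with a log2 fold change of -0.13 (SE 0.45). Asah1, acid ceramidase, had a log2 fold change of -0.13 (SE 0.38). Cers2, the ceramide synthase of very long chains, had 98.5 ± 4.49 and 106 ± 13.9 CPM (SD, n = 4), with a log2 fold change of -0.10 (SE 0.12). Of the other ceramide synthases, named after their values were seen, Cers1, Cers4, Cers5 and Cers6 had log2 fold changes of -0.41, -0.79, -0.20 and -0.12 beside 1.70 for Cers3, and none of them was called.

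**Figure D5:**
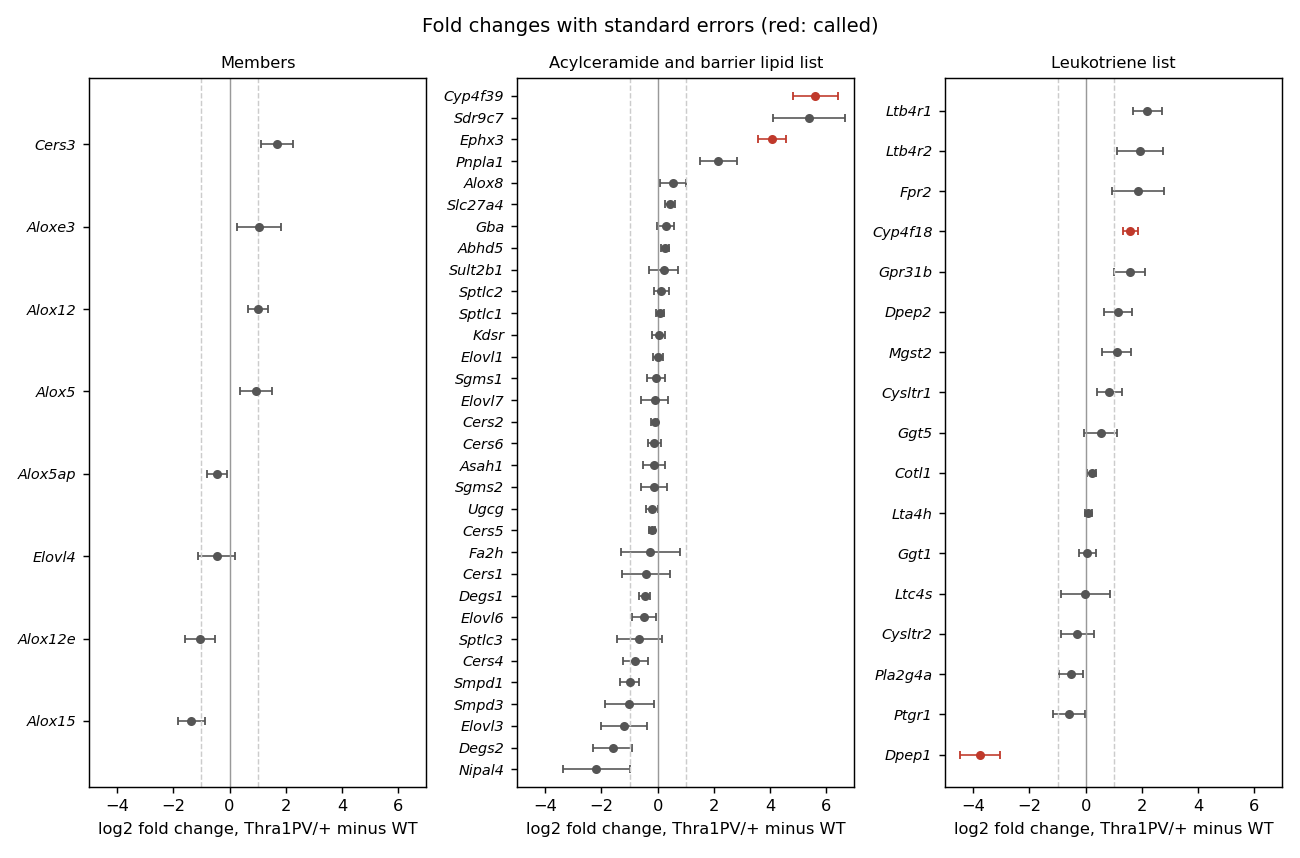
Log2 fold change (Thra1PV/+ minus WT, horizontal axis) with its standard error for the 8 tested members (left), the 32 tested genes of the acylceramide and barrier lipid list (centre) and the 17 tested genes of the leukotriene list (right), with called genes in red and dashed lines at a fold change of 2. The red points are Cyp4f39 and Ephx3 in the centre panel and Cyp4f18 and Dpep1 in the right panel, and no member is red.

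The leukotriene list held 18 genes downstream or beside Alox5 and Alox5ap, of which 17 were tested, 1 was called higher and 1 lower, beside 0.924% and 0.066% of all tested genes. Their median log2 fold change was 0.53, beside -0.05 over all tested genes, and at an unadjusted p under 0.05 there were 5 positive and 1 negative, beside 9.77% of all tested genes in either direction. Cyp4f18 (ENSMUSG00000003484), a neutrophil hydroxylase that inactivates leukotriene B4, rose from 4.62 ± 1.32 to 13.9 ± 2.11 CPM (SD, n = 4), with 11.1 to 16.2 CPM in Thra1PV/+ and 3.32 to 5.94 CPM in WT libraries. Its log2 fold change was 1.59 (SE 0.26, edgeR adjusted p = 0.0389). The neutrophil markers other than Ltf summed to 177, 767, 327 and 87.4 CPM in Thra1PV/+ libraries 1 to 4. In WT libraries 1 to 4 they summed to 66.3, 11.4, 16.3 and 155 CPM, so that the genotypes overlapped. Cyp4f18 had 14.5, 11.1, 13.6 and 16.2 CPM in Thra1PV/+ libraries 1 to 4, the reverse order of these sums. Its 5.53, 3.32, 3.66 and 5.94 CPM in WT libraries 1 to 4 followed the order of the sums. The part of neutrophils in the Cyp4f18 and Ltb4r1 values was not tested. The call of Cyp4f18 was lost without Thra1PV/+ library 3 (adjusted p = 0.151) and without Thra1PV/+ library 4 (adjusted p = 0.131, both from edgeR). It was also lost on the deposited TPM values (adjusted p = 0.183 and 0.174 from limma with pseudocounts of 1 and 0.1).

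Dpep1 (ENSMUSG00000019278), the dipeptidase that turns leukotriene D4 into leukotriene E4, fell from 24.2 ± 15.7 to 1.78 ± 0.987 CPM (SD, n = 4). The Thra1PV/+ libraries held 0.568 to 2.90 CPM and the WT libraries 5.76 to 41.8 CPM, a log2 fold change of -3.77 (SE 0.71, edgeR adjusted p = 0.0725). Its direction held in all 19 alternatives, but the call was lost when any 1 library other than WT library 2 was left out (adjusted p = 0.136 to 0.211). All 10 stroma markers had negative log2 fold changes, with a median of -0.55 and 1 at an unadjusted p under 0.05 by edgeR. All 5 smooth muscle markers were negative too, with a median of -4.60 and all 5 under 0.05. None of these markers was called. Stroma markers summed to 5739 CPM in Thra1PV/+ library 1, where Dpep1 had 2.13 CPM. In WT library 3 they summed to 1978 CPM, with 31.45 CPM of Dpep1. WT library 1, with the highest Dpep1, held 5094 CPM of stroma and 9424 CPM of smooth muscle markers. Thra1PV/+ library 2, with the lowest, held 665 and 101 CPM. The part of stroma and muscle in the Dpep1 value was not tested.

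The leukotriene genes with the highest levels had no call. Cotl1, which binds 5-lipoxygenase, had a log2 fold change of 0.21 (SE 0.18), Pla2g4a, the phospholipase that releases arachidonate, one of -0.53 (SE 0.43), and Lta4h, which makes leukotriene B4, one of 0.09 (SE 0.13). Ltb4r1, the leukotriene B4 receptor of neutrophils, named after its values were seen as the other gene of the list without overlap, had 3.49 to 11.1 CPM in Thra1PV/+ and 0.782 to 2.18 CPM in WT libraries (log2 fold change 2.18, edgeR adjusted p = 0.168).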

How the data were processed

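The authors prepared stranded mRNA libraries, trimmed the reads with Trimmomatic and estimated transcript abundance with Salmon for mouse genome mm10, and the Salmon version and annotation release are not given in the sources used here. Estimated counts of each gene, not normalized, were deposited in 1 table and TPM values in another. After sorting, the deposited TPM values differed by at most 0.29 between libraries at any rank, the form that quantile normalization gives. That table has 1 further column of per-sample values, which matched no sample's label and was not used.

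Rounded to integers, the estimated counts were tested with edgeR 4.0.16 in R 4.3.3: filterByExpr (minimum count 10, minimum total 15), TMM, a quasi-likelihood test with genotype as the only term, and Benjamini-Hochberg adjustment over 18174 genes. Standard errors were derived from the F statistic, and log2 CPM used a prior count of 2. Single genes were also compared by two-sided exact permutation tests. limma 3.58.1 and DESeq2 1.42.0 served as alternatives, and the script was tested on simulated data.

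Gene positions and transcripts came from GENCODE M21 (GRCm38), and coding sequences were aligned globally. The members, lists and tests were chosen with earlier results of these data known. Named genes were the members, Thra, called genes and the 3 with the highest mean CPM of each pathway list, and the 3 genes most like each tested member. Other genes named in the text, among them the further ceramide synthases, the squamous and immune markers and the neighbours on chromosome 11, were chosen after their values were seen.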

Additional observations from a re-analysis of the deposited data

How the results depend on the processing

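No member was called in the reported analysis, and 1 was, Cers3 each time, with DESeq2 and without WT replicate 2, so that with single libraries left out the number ran from 0 to 1. The other alternatives gave 0 members. Over the whole table the 180 calls became 702 with DESeq2, 311 with limma voom and sample quality weights, 81 with at least 10 counts in every library and 119 at an adjusted p of 0.05, and they ran from 81 to 167 with single libraries left out, which leaves fewer samples. The sign turned for Aloxe3 without Thra1PV/+ replicate 4 (-0.028) and for Elovl4 without WT replicate 1 (0.313), in ranges of -0.028 to 1.525 and -0.796 to 0.313 over single libraries left out, and held for the other 6 tested members in every alternative. The cause of these shifts was not tested.

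With the replicate number as a block, 82 genes and 0 members were called. Deviations of same-numbered libraries from their genotype means correlated at 0.27, -0.44, 0.34 and -0.16, with no common sign. Such correlations cannot tell whether same-numbered samples shared a litter or day, which the labels do not state. With the block, Cyp4f18 had an adjusted p of 0.105 from edgeR. Alox12b, Abca12 and Aloxe3 are limited by depth, with counts of 67 or fewer in every library. Dpep1 was also not called with at least 10 counts in every library (adjusted p = 0.107 from edgeR).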
